A study of Mus musculus with 18 samples.

Results

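The collagen genes other than type I were followed across the mouse cochlea. The family was taken as every gene of the deposited table whose symbol is Col, a number, the letter a and a number, with Col1a1 and Col1a2 left out, which gave 42 of 46583 genes. By type they were 9 fibrillar genes, 6 chains of the type IV network of basement membranes, 3 genes of the basement membrane zone (Col7a1, Col15a1 and Col18a1) and 9 fibril-associated genes with interrupted triple helices (FACIT). The other members were 6 genes of the beaded filaments of type VI, 3 of the networks of types VIII and X, 4 transmembrane genes and 2 others (Col26a1 and Col28a1). RNA came from cochleae of 4-week-old, untreated mice, cut into base, middle and apex along the tonotopic axis, the axis along which the cochlea maps sound frequency. Each region was taken from mice whose genotype the labels give as WT, called control here, and from mice in which Fst, the gene of the activin-binding protein follistatin, was conditionally deleted (cKO). The labels name no Cre driver, so the cells that lost Fst are not given in the sources used here. Each region of each genotype was pooled into 1 RNA sample from which 3 technical libraries were made, so the 6 groups hold n = 3 libraries of n = 1 pool each. All errors and p-values on libraries therefore carry the spread between technical libraries of a pool and not between animals.

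Collagens are triple-helical proteins that give tissues their tensile strength. Fibrillar collagens such as types II, III, V, XI and XXVII assemble into fibrils. FACIT collagens such as type IX coat the surface of fibrils, and type IV collagen forms the sheet of basement membranes. In the cochlea, types II, IX and XI are components of the tectorial membrane, the extracellular sheet over the hair cells, and of the matrix of the spiral ligament, while type IV underlies epithelia and vessels. Inherited defects of COL11A2 cause hearing loss, defects of COL2A1, COL11A1 and the type IX genes cause Stickler syndrome, and defects of COL4A3, COL4A4 or COL4A5 cause Alport syndrome, both of which can include hearing loss.

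Library totals ran from 24446760 to 33732726 counts, and the members together took 0.434% to 0.839% of them. Levels are given as CPM, a gene's counts scaled to the same total in every library, and 3 counts, which a count of 0 cannot exclude, equal 0.0889 to 0.123 CPM. No molecular identifiers mark the reads, and so each interval or floor covers the error of counting alone. As a check of the labels, Fst counts were 671, 722 and 712 in the control apex libraries against 260.0, 258 and 278 in the cKO apex, 197, 191 and 166 against 91, 97 and 114 in the middle, and 64, 63 and 59 against 51, 49 and 45 in the base. In CPM the means were 24.4 against 9.84 in the apex, 6.37 against 2.99 in the middle and 2.17 against 1.86 in the base. In the base the lowest control library held 2.04 CPM and the highest cKO library 1.97, so Fst checks the base labels only weakly. The control and cKO pools also differed in Xist, a transcript of female cells, by log2 changes of -2.37, -1.77 and -2.16 in base, middle and apex, a difference between the pools that cannot be told apart from genotype. All 6 hair cell genes of a marker list were detected in every group, and their summed level ran from 138 CPM in cKO base to 468 in control apex.

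Upstream sequence is shown for some of the members that were lower in the apex, as the letters next to which their transcription starts. Col6a1 and Col6a2, also lower there, are not among those printed. The RefSeq table of GRCm38.p6 held 34 of the 42 members, with 37 windows from 250 bases before to 50 bases after a start, and each line below gives the 100 bases before the start, 5′ to 3′ on the gene's strand. Each of these stretches holds no exon of GENCODE M21 on GRCm38/mm10. Capitals mark a CCAAT box (CCAAT) or a GC box (GGGCGG), on either strand. They lie upstream of Col11a1 at chr3:114030440-114030539, Col11a2 at chr17:34039038-34039137, Col27a1 at chr4:63215312-63215411, Col3a1 at chr1:45311438-45311537 and Col9a1 at chr1:24177510-24177609, all on the plus strand.
Col11a1: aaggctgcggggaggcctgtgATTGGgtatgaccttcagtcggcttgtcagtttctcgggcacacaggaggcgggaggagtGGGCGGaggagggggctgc
Col11a2: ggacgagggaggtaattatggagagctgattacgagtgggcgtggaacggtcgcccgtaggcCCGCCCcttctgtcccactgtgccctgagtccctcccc
Col27a1: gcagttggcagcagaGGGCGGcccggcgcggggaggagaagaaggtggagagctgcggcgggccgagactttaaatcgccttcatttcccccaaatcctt
Col3a1: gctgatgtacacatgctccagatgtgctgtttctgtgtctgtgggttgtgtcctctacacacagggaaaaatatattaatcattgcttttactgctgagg
Col9a1: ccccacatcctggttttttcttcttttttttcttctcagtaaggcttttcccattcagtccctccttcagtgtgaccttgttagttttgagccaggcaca

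The stretches differ in make-up: those of Col11a1, Col11a2 and Col27a1 are 65%, 64% and 63% G or C with a GC box each, and those printed for Col3a1 and Col9a1 are 43% and 44% G or C with neither box. Col9a1 has a further RefSeq start. The 100 bases before it, at chr1:24195103-24195202, overlap an exon of the gene, are 55% G or C and hold a CCAAT box. The Col27a1 stretch lies inside the span that GENCODE gives the gene, before the RefSeq start. Over the whole 300-base windows, a GC box stood in 22 of 37 member windows (59.5%) and in 35.7% of all 32851 windows of the table. It stood in 5 of the 9 windows of members lower in the apex in the fit of summed pools below, and in 17 of the other 28. Member windows had a median of 59.7% G or C, against 52.7% over all windows. A CCAAT box stood in 12 of 37 (32.4% against 37.4%) and a TATA box (TATAAA) in 5 of 37 (13.5% against 13.6%). The letters ACAAAG, of the kind that SOX factors bind, stood in 5 of 37 windows (13.5% against 18.7%), TGTGGT, of the RUNX kind, in 3 (8.11% against 16.8%), and TGANTCA, of the AP-1 kind, in 1 (2.7% against 7.81%). Both strands were searched, and the shares were not tested against each other. A single stretch between gene starts is shown for the chains Col4a3 and Col4a4, which lie head to head on chromosome 1 with 71 bases between them, at chr1:82586850-82586920, given here on the plus strand, which leads from the start of Col4a4 to that of Col4a3. None of the 6 motifs searched stands in it.
Col4a4 to Col4a3: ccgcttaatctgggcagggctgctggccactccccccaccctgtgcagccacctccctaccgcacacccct

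Col11a2, a chain of the type XI fibrils that set fibril diameter, had the highest level of the family. Per length, its mean over the 18 libraries was 724 FPKM (fragments scaled by transcript length and library size), 45% of the summed FPKM of all 42 members. Next came the type IX chains Col9a3 (181 FPKM) and Col9a2 (175), then Col2a1 (104), Col27a1 (98.6), Col9a1 (47.4) and Col11a1 (37.4). Genes of types II, IX, XI and XXVII held the first 7 places. The basement membrane chains Col4a1 and Col4a2 stood at 18 and 15.9 FPKM, and Col3a1 at 23.2. At the low end, Col6a4, Col6a5 and Col10a1 had 21, 37 and 58 counts over all 18 libraries and did not pass the filter on low counts, which left 39 members for the tests on libraries.

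The first comparison asked how collagen transcripts differ along the tonotopic axis. Summed over the family, the control held 8037 ± 146 CPM in base (mean ± SD, n = 3 libraries of 1 pool), 5662 ± 20.9 in middle and 4354 ± 21 in apex. In the cKO the sums were 8352 ± 34.7, 6447 ± 33.9 and 5173 ± 19.5. Of 39 members tested, 11 were lower and 0 higher in the control apex than in the control base, where a call needs an adjusted p under 0.05 and a log2 change of at least 1, that is a 2-fold difference (edgeR, quasi-likelihood F test, Benjamini-Hochberg adjustment over all 17901 genes tested). Of all genes 5.48% were called in this comparison, 3.2% lower and 2.28% higher. The median log2 change was -0.54 over the members and 0.00488 over all genes. In the cKO, apex against base gave 6 members lower and 0 higher, where 6.6% of all genes were called, 3.81% lower and 2.79% higher, with a median of -0.36 over the members and 0.0218 over all genes. The control and cKO comparisons share no library. On the authors' FPKM, as log2(FPKM + 1) in limma, 8 members were lower in control apex and 3 in cKO apex, where 1.33% and 1.59% of all genes were called, and Col4a3 (-0.92), Col6a3 (-0.71) and Col12a1 (-0.91) fell short of the fold threshold in control and Col6a2 (-0.99) and Col12a1 (-0.60) in the cKO, where Col17a1 was under the filter on FPKM. In bulk RNA, fewer cells of a type and less RNA per cell cannot be told apart.

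**Figure D1:**
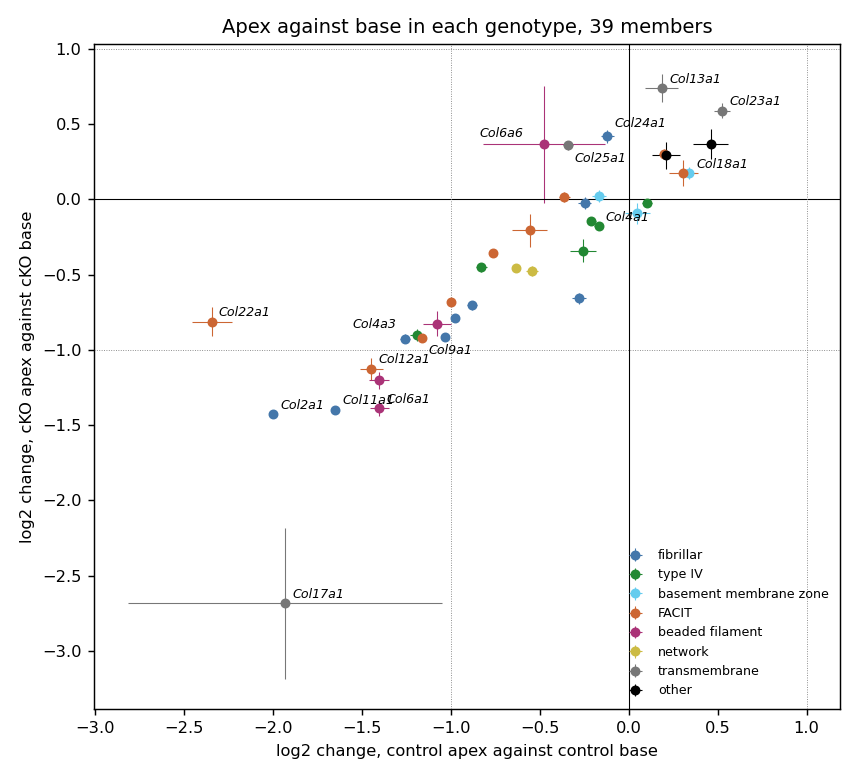
Log2 change of apex against base in control pools (x axis) and in cKO pools (y axis) for the 39 members tested, each point a gene with its standard error from edgeR, coloured by type, with dotted lines at a log2 change of 1 and -1. Col2a1, Col11a1, Col12a1, Col6a1 and Col6a2 lie below -1 on both axes, as does the low Col17a1 with wide errors, and no member lies above 1 on either.

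The common biological coefficient of variation was 0.00988 among technical libraries. The 6 summed pools were also fitted with region and genotype as terms, which leaves 2 residual degrees of freedom. The coefficient was 0.116 in this fit. Each group has 1 pool, so the fit's error mixes differences between pools with any genotype difference that varies by region. Neither the coefficient nor the p-values of this fit can be read as spread between animals. In this fit, 10 of 40 members were lower in the apex than in the base at an adjusted p under 0.05 and 0 higher. Of all 19446 genes, 7.08% were called, 3.32% lower and 3.76% higher. The members were Col2a1, Col3a1, Col11a1, Col11a2, Col27a1, Col4a3, Col9a1, Col9a3, Col6a1 and Col6a2. DESeq2 on the same pools called 20 members, 19 lower and 1 higher, with 13.7% of all genes called. Without the filter on low counts edgeR called 16, all lower, with 5.55% of all genes called. Apex against middle called Col6a1 alone, at -1.29 ± 0.15 (adjusted p = 0.0472, with 1.27% of all genes called), and without control middle replicate 2 it no longer passed (-1.26, adjusted p = 0.0524). Middle against base called 0 members and 0 genes in edgeR, with 11 members and 12% of all genes at an unadjusted p under 0.05, while DESeq2 called 8 members and 2.42% of all genes.

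Among the fibrillar genes, 4 of 9 fell from control base to control apex by the call. Col2a1, the chain of type II collagen, stood at 770.5, 763 and 739 CPM in the control base libraries, 399, 398 and 393 in the middle and 201, 199 and 197 in the apex. In the cKO it stood at 646, 655 and 639.7 in the base, 481, 489.9 and 490.2 in the middle and 245, 246 and 248 in the apex. In both genotypes every base library lay above every middle library and every middle library above every apex library. The log2 change of apex against base was -1.999 ± 0.018 in control (adjusted p = 2.27e-41, 4.00-fold lower) and -1.43 ± 0.021 in the cKO (adjusted p = 1.35e-34). Over the pools it was -1.72 ± 0.16 (adjusted p = 0.0144). Col2a1 lies on the minus strand of chromosome 15, 97975602 to 98004695 (GRCm38/mm10, GENCODE M21), as a protein-coding gene.

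Col11a1, the partner of Col11a2 in type XI fibrils, stood at 334, 332 and 328 CPM in control base, 174, 171 and 174 in middle and 109, 112 and 112 in apex. In CPM, its cKO libraries held 328, 327 and 334 in base, 249, 243 and 254 in middle and 129.7, 129.9 and 126 in apex. The regions did not overlap in either genotype, and the log2 change of apex against base was -1.65 ± 0.021 in control and -1.40 ± 0.021 in the cKO. Col11a2 stood at 3831, 3789.7 and 3667 CPM in control base and 2000.2, 2023 and 1999 in control apex, and at 4260.4, 4305 and 4266 in cKO base and 2537, 2558 and 2541 in cKO apex. Its apex libraries were also all below its base libraries, with log2 changes of -0.97 ± 0.010 in control, just outside the fold threshold, and -0.79 ± 0.0092 in the cKO. Over the pools Col11a2 passed at -0.88 ± 0.090 (adjusted p = 0.0167). The count ratio of Col11a2 to Col11a1 was 11.4 in the base, 15.5 in the middle and 18.1 in the apex of the control, and 13, 12.2 and 19.8 in the cKO. As a description of these libraries, Col11a1 was lower in the apex by more than Col11a2 in both genotypes, and this difference between the chains was not tested.

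Col27a1, which encodes a fibrillar chain made by cartilage, stood at 793, 773 and 766 CPM in control base, 452, 456 and 453 in middle and 398, 397 and 402 in apex, a change of -1.03 ± 0.013 from base to apex. In the cKO its change was -0.91 ± 0.016, under the fold threshold, with 706, 718 and 709 CPM in base and 385, 392 and 384 in apex. Over the pools it passed at -0.97 ± 0.080 (adjusted p = 0.013). Col3a1, the chain of type III fibrils of soft connective tissue, stood at 135, 132 and 134 CPM in control base and 57.8, 59.6 and 58.5 in control apex, a change of -1.26 ± 0.027. Its cKO levels were 104, 105 and 106 in base, 112, 112 and 121 in middle and 57, 58 and 55.3 in apex. In the cKO it fell from middle to apex by 1.02 ± 0.028 on the log2 scale, which was -0.99 and outside the threshold without cKO middle replicate 3. The type V chains were not called: Col5a2, the neighbour of Col3a1 with 24614 bases between them, had log2 changes of -0.88 ± 0.027 in control apex against base, Col5a1 of -0.25 ± 0.037 and Col5a3 of -0.28 ± 0.038. Col24a1 was at 32.8 CPM in control base and 31.7 in control apex, a change of -0.12 ± 0.039, and at 25.7 and 35.3 in the cKO, a change of 0.42 ± 0.041. Type I, left out of the family, changed in control apex against base by -3.62 ± 0.022 (Col1a1) and -1.34 ± 0.013 (Col1a2).

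**Figure D2:**
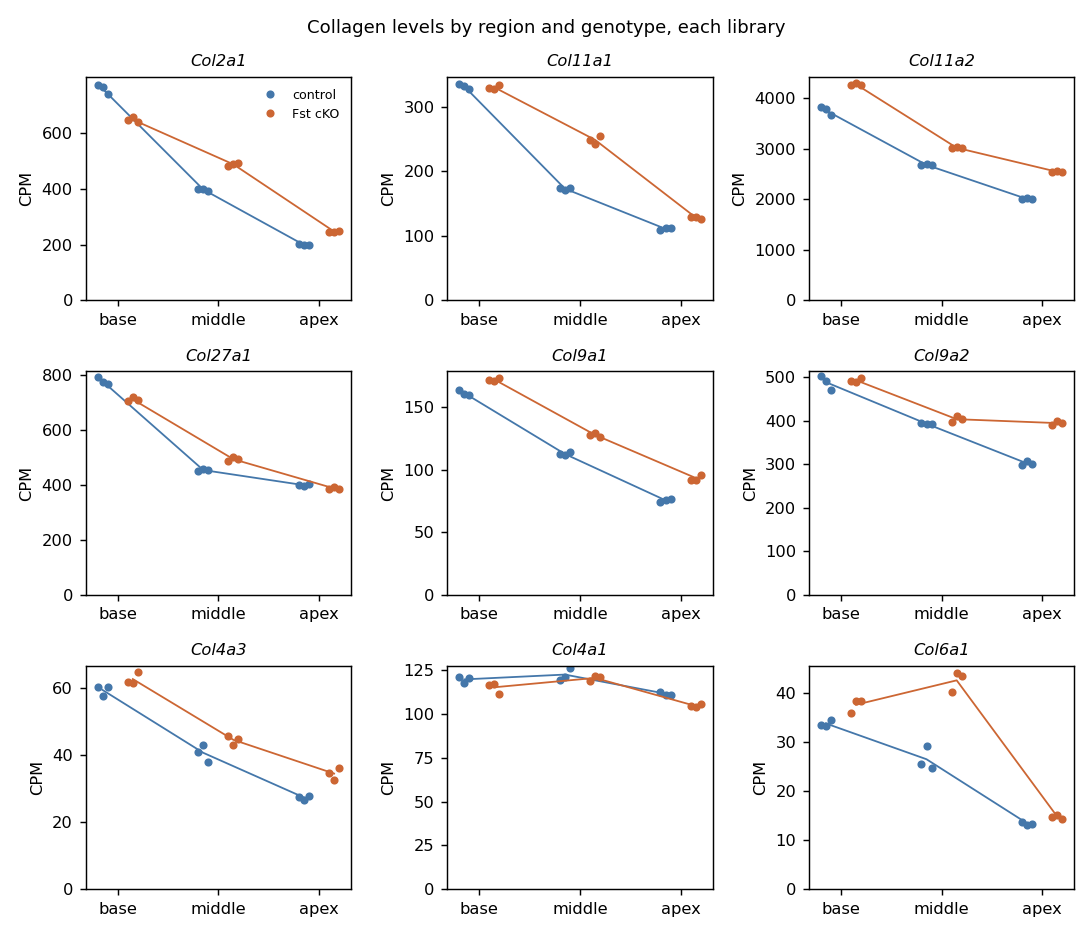
CPM of 9 members (y axis, from 0) by cochlear region (x axis), with 1 point per library and lines through the means of control (blue) and cKO (orange) groups. The fibrillar and type IX genes step down from base to apex in both genotypes, with Col2a1 near 757 CPM in control base and 199 in control apex, while Col4a1 stays between 104 and 127 CPM in every library.

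The type IV chains of basement membranes divided by chain. Col4a3, which pairs with Col4a4 and Col4a5 in the network of specialised basement membranes, stood at 60.4, 57.6 and 60.2 CPM in control base, 41, 43.1 and 37.9 in middle and 27.4, 26.7 and 27.9 in apex. In the cKO it stood at 61.8, 61.5 and 64.8 in base, 45.7, 43.1 and 44.8 in middle and 34.7, 32.7 and 36 in apex. Within a genotype the regions did not overlap, and apex against base was -1.19 ± 0.039 in control (adjusted p = 4.81e-24), -0.90 ± 0.038 in the cKO and -1.04 ± 0.084 over the pools (adjusted p = 0.0129). Its head-to-head neighbour Col4a4, on the other side of the 71 bases printed above, had -0.83 ± 0.032 in control and -0.45 ± 0.031 in the cKO, and missed the threshold over the pools at -0.63 ± 0.12 (adjusted p = 0.0513). Col4a5, the X-linked chain that joins them in the protein, did not show this order: its means were 60.8 CPM in control base and 68.5 in control apex, a log2 change of 0.10 ± 0.027. The chains of all basement membranes, Col4a1 and Col4a2, had -0.17 ± 0.023 and -0.21 ± 0.023, and Col4a6 had -0.26 ± 0.075. Against Col4a1, the count ratio of Col4a3 was 0.495 in control base, 0.332 in middle and 0.244 in apex, and 0.544, 0.369 and 0.329 in the cKO. Col4a1 and Col4a2, which overlap at their starts on opposite strands, kept a count ratio between 1.13 and 1.21 over the 6 group means, and since the strand setting of the counting is not given in the sources used here, reads near their shared start cannot be assigned with certainty.

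Of the 3 genes of the basement membrane zone, 0 were called in any of the 9 comparisons of 2 groups. Of all genes 2.04% to 6.6% were called in these comparisons, so 0 of so few genes is near that share. Col18a1, the precursor of endostatin, was 31.3 CPM in control base, 25.6 in middle and 41.5 in apex, with an apex-to-base log2 change of 0.34 ± 0.040. Col15a1 and Col7a1, the anchoring fibril chain, had -0.17 ± 0.038 and 0.05 ± 0.070. Summed over these 3 genes, levels ran from 67.7 CPM in control middle to 86.9 in cKO middle. The 6 type IV chains summed to 423 CPM in control base, 399 in middle and 350.4 in apex, against 5955, 3941 and 2919.5 for the 9 fibrillar genes.

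The FACIT genes were also mixed, with 3 of 9 lower in control apex than base and 0 higher. The type IX chains shared the order of their region means, though Col9a2 libraries of cKO middle and apex overlapped. Col9a1 stood at 164, 161 and 159 CPM in control base, 113, 111 and 114 in middle and 74, 75.7 and 76.7 in apex. The cKO held 172, 171 and 174 in base, 128, 129 and 126 in middle and 91.8, 92 and 96.1 in apex. Its regions did not overlap, and apex against base was -1.16 ± 0.022 in control and -0.92 ± 0.022 in the cKO. Col9a3 had -0.9999 ± 0.017 and -0.68 ± 0.017 in control and cKO, the first just short of the fold threshold, and Col9a2 had -0.77 ± 0.019 and -0.36 ± 0.018. Over the pools Col9a1 (-1.04 ± 0.074, adjusted p = 0.0129) and Col9a3 (-0.84 ± 0.090, adjusted p = 0.0178) passed, and Col9a2 did not (-0.56 ± 0.12, adjusted p = 0.062). Col9a2 in the cKO apex was 389, 399 and 395 CPM, above the control apex libraries at 299, 306 and 299.6.

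Col12a1, which encodes a FACIT chain of dense connective tissue, stood at 19.5, 17.9 and 20 CPM in control base, 12.9, 14.2 and 12.5 in middle and 7.02, 7.97 and 6.99 in apex. The cKO libraries held 14.4, 13.9 and 13.8 in base, 20.2, 19.4 and 21.1 in middle and 6.58, 7.04 and 6.14 in apex, and the middle was highest there. Col12a1 fell from base to apex in control (-1.45 ± 0.066) and in the cKO (-1.13 ± 0.075), where middle to apex was larger still (-1.63 ± 0.066), and over the pools it did not pass (-1.30 ± 0.26, adjusted p = 0.0565). Col22a1, a FACIT chain of tissue junctions such as the myotendinous junction, is taken up with the genotypes. The remaining FACIT genes were not called in any region comparison: Col14a1 and Col20a1 had 0.20 ± 0.028 and 0.31 ± 0.082 in control apex against base, and Col16a1 and Col19a1 had -0.36 ± 0.030 and -0.56 ± 0.099.

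**Figure D3:**
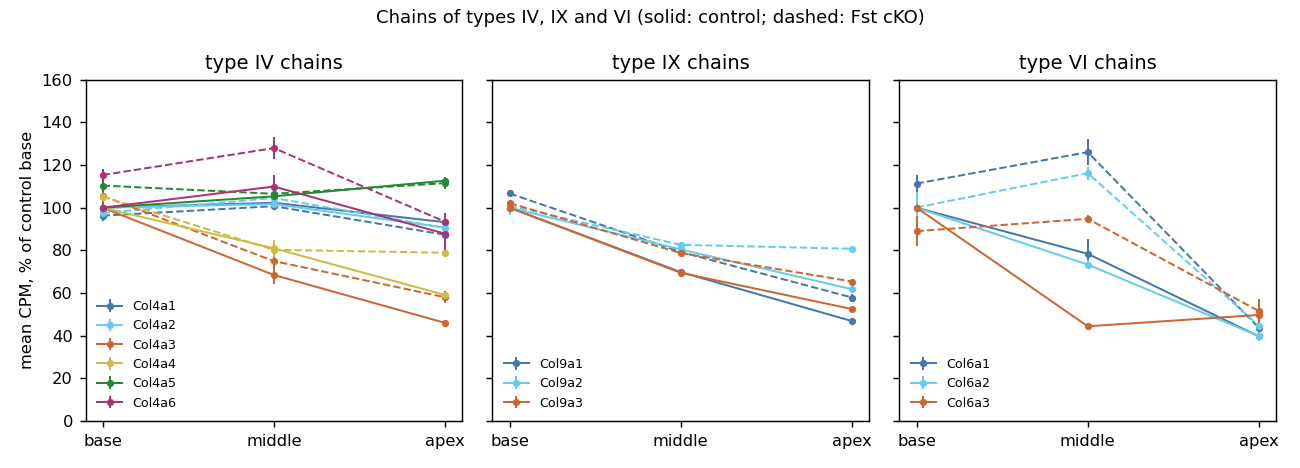
Mean CPM as percent of control base (y axis, from 0) by region for the chains of types IV, IX and VI in control (solid) and cKO (dashed), with SD of 3 libraries. In control apex Col4a3 is at 46.0% of its control base level and Col4a1 at 93.2%, and Col6a1 in cKO middle is at 126%, against 43.6% in cKO apex.

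In type VI, which forms beaded filaments around cells, Col6a1, Col6a2 and Col6a3 are the 3 chains of the classical molecule. Col6a1 stood at 33.4, 33.3 and 34.5 CPM in control base, 25.5, 29 and 24.7 in middle and 13.7, 13.1 and 13.2 in apex. In the cKO it stood at 35.9, 38.3 and 38.3 in base, 40.2, 43.9 and 43.3 in middle and 14.7, 15.1 and 14.3 in apex. For Col6a2 the control held 28.1, 25.4 and 24.3 in base, 18.3, 19.3 and 19.4 in middle and 9.68, 11 and 10.3 in apex, and the cKO 25.4, 26.1 and 26.2 in base, 30.4, 29.2 and 30.7 in middle and 12.2, 11.5 and 11 in apex. For both genes every apex library lay below every other library of its genotype, and in the cKO every middle library lay above every base library. Apex against base was -1.40 ± 0.053 and -1.39 ± 0.052 for Col6a1 and -1.40 ± 0.055 and -1.20 ± 0.056 for Col6a2, in control and cKO. Both passed over the pools, at -1.39 ± 0.15 (adjusted p = 0.0177) and -1.31 ± 0.17 (adjusted p = 0.0257). The genes lie on the minus strand of chromosome 10 with 85161 bases between them. The other 3 genes of this type were near the floor: Col6a6 had 228 counts over all libraries, with control base at 0.611, 0.55 and 0.654 CPM and control middle at 0.138, 0.31 and 0.414, and its call in that comparison (-1.08 ± 0.38, adjusted p = 0.0267) was lost with DESeq2 (adjusted p = 0.066) and without control base replicate 1 or 3 or control middle replicate 1 or 2 (adjusted p = 0.0554 to 0.174).

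Of the network, transmembrane and remaining genes, 0 of the 8 tested were called in control apex against base. Of all genes 5.48% were called there, so 0 of so few genes is near that share. Network genes Col8a1 and Col8a2, of type VIII in vessels and elsewhere, had -0.63 ± 0.021 and -0.54 ± 0.033 there, and the mean of Col8a1 stepped down from base through middle to apex in both genotypes. Col10a1, the collagen of hypertrophic cartilage, had 25 summed counts in the base, 7 in the middle and 0 in the apex of the control, at least 8.30-fold lower in the apex with 3 counts taken as the floor over the group, and 13, 9 and 4 in the cKO. The transmembrane genes Col13a1, Col23a1 and Col25a1 had 0.19 ± 0.093, 0.52 ± 0.045 and -0.34 ± 0.028 in control and 0.74 ± 0.092, 0.59 ± 0.048 and 0.36 ± 0.028 in the cKO, none past the threshold. Col17a1, also of this type, had -1.93 ± 0.88 in control (adjusted p = 0.066) and is described with the genotypes. Col26a1 and Col28a1 had 0.21 ± 0.078 and 0.46 ± 0.097 in control.

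Counted by order alone, every apex library lay below every base library in both genotypes for 22 of 39 members tested, against 13.7% of all genes tested. The opposite held for 6 of 39 (Col13a1, Col14a1, Col18a1, Col23a1, Col26a1 and Col28a1), against 28.5% of all genes. Mean CPM stepped down from base through middle to apex in both genotypes for 12 of 39, against 7.28% of all genes: these were Col2a1, Col11a1, Col11a2, Col27a1, Col4a3, Col4a4, Col8a1, Col9a1, Col9a2, Col9a3, Col17a1 and Col19a1. Some of these steps lay within the library spread. From cKO middle to cKO apex, Col4a4 went from 57.6 ± 2.31 to 56.6 ± 1.45 CPM and Col19a1 from 4.11 ± 0.229 to 4.07 ± 0.16. Col9a2 went from 403 ± 6.56 to 394 ± 4.98 there, and the low Col17a1 from 0.158 ± 0.0615 to 0.111 ± 0.0646. A step up in both genotypes was seen in 0 of 39, against 14.8% of all genes. Between neighbouring regions of the control, 3 members fell from middle to apex and 0 rose (5.3% of all genes called, 3.22% lower and 2.08% higher): Col2a1 (-1.04 ± 0.028), Col6a1 (-1.03 ± 0.056; -0.95 without control middle replicate 2) and Col22a1 (-1.05 ± 0.14; -0.96 without control apex replicate 3 and -0.86 without control middle replicate 3). From base to middle 3 fell and 0 rose (2.73% called, 1.2% lower and 1.53% higher): Col22a1 (-1.30 ± 0.096), Col6a3 (-1.20 ± 0.081) and the low Col6a6. In the cKO, 5 fell from middle to apex and 0 rose (4.6% called, 2.93% lower and 1.67% higher): Col3a1, Col6a1 (-1.54 ± 0.049), Col6a2 (-1.39 ± 0.052), Col12a1 and Col22a1 (-1.14 ± 0.089). From cKO base to cKO middle only Col17a1 was called, lower, which is 2.56% of members (3.26% of all genes called, 1.35% lower and 1.92% higher).

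Markers of other tissues and cells also differed between apex and base. Beside the counts below, 5.48% of all genes were called in control apex against base and 6.6% in cKO apex against base. Of 10 cartilage genes, all found and 9 tested, 4 were lower in control apex than in base (Acan -1.95, Prg4 -3.66, Comp -1.30 and Matn1 -1.22) and 1 was higher (Epyc 1.88). Their summed level ran over libraries from 1870.1 to 1909 CPM in control base, 1619.6 to 1627 in middle and 2357 to 2370.5 in apex, and Matn3 had 0 counts in control middle, control apex and cKO apex. Of 10 osteoblast genes 7 were lower in control apex than base and 0 in cKO apex than base by the call, with sums of 6610.0 to 6689, 6531 to 6599 and 4931 to 4973 CPM along the control and 8271 to 8292, 6809 to 6841 and 4539.8 to 4552 along the cKO. Of 7 genes of fibrocytes and the spiral ligament, 2 were lower in control apex than base (Otos and Dcn) and 1 was higher (Emilin2), with sums of 33419.6 to 33702 CPM in control base and 22912 to 23014 in control apex. The 4 skeletal muscle genes summed to at most 2.85 CPM in any library. Of 5 genes of the meninges 3 were lower in the apex in each genotype (Slc47a1, Slc6a13 and Slc22a6), with sums of 25585 to 25668 CPM in control base and 18013 to 18073 in control apex, and of 5 tectorial membrane genes 3 were higher in control apex (Tectb, Otogl and Otog), with sums of 1137 to 1157 and 1409.7 to 1425. The 5 airway genes summed to 134, 15.5 and 24.2 CPM along the control and to 105, 27.4 and 354 along the cKO, with Sec14l3 at 0 in control middle, control apex and cKO middle. The 5 spiral ganglion neuron genes summed to 2820.3, 3608 and 4493 CPM along the control and to 1788, 3196 and 3239 along the cKO, with 0 called in control apex against base and 1 higher in cKO (Calb2). The 4 Schwann cell genes summed to 4029, 5457 and 5714 along the control and to 3398, 4881 and 4368 along the cKO, with 0 called in either. No other gene of these 9 lists was at 0 in a whole group. Their part in the collagen differences was not tested.

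Some of the other genes that make and handle collagen were lower in the apex. Beside the counts below, 5.48% of all genes were called in control apex against base, 3.2% lower. Over the pools 7.08% were called for apex against base, 3.32% lower. Of 26 genes of collagen synthesis and processing, 2 fell from control base to control apex and 0 rose: Pcolce2, an enhancer of procollagen cleavage (-1.62 ± 0.056), and Adamts14, a procollagen N-proteinase (-2.53 ± 0.16). Over the pools 6 of the 26 were lower: Pcolce2, the prolyl and lysyl hydroxylases P4ha2, P3h2, Plod1 and Plod2, and the galactosyltransferase Colgalt2. Of 5 crosslinking oxidases 0 were called on libraries, with a median of -0.72, and Lox (-0.77 ± 0.077) and Loxl3 (-0.46 ± 0.075) were lower over the pools. Of 10 receptor genes Itga11 (-1.32 ± 0.13) and the platelet receptor Gp6 (-3.44 ± 0.95) fell, and over the pools the integrins Itga1 and Itga10. On log2(FPKM + 1) in limma, Itga11 was -0.60, Adamts14 -0.66 and Mmp9 -0.99, under the fold threshold, and Gp6 did not pass (-0.20, adjusted p = 0.0983). Of 6 genes of collagen breakdown, Mmp13 (-2.81 ± 0.17) and Mmp9 (-1.504 ± 0.11) fell and 0 rose. The lists' medians were -0.33, -0.72, -0.47 and -0.55, beside -0.54 for the collagens and 0.00488 for all genes.

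The second comparison asked how the collagen transcripts of cKO pools differ from control pools in each region. Few members passed: in the apex 1 was higher and 0 lower (2.04% of all genes called, 1.49% higher and 0.553% lower). In the middle 2 were higher and 0 lower (2.72% called, 2.15% higher and 0.575% lower), and in the base 1 was higher and 0 lower (3.03% called, 2.51% higher and 0.514% lower). As shares of the 39 members these are 2.56%, 5.13% and 2.56%. The median log2 change of cKO against control was 0.14 in the apex, 0.24 in the middle and -0.05 in the base, beside 0.00475, -0.000576 and -0.0157 over all genes. With region as a term, the 6 summed pools gave 0 members and 0 genes with a genotype difference at an adjusted p under 0.05 in edgeR, with 7 members and 11% of all genes at an unadjusted p under 0.05, while DESeq2 called 1 member, higher, and 1.88% of all genes. These genotype comparisons use the same libraries as the region comparisons above.

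**Figure D4:**
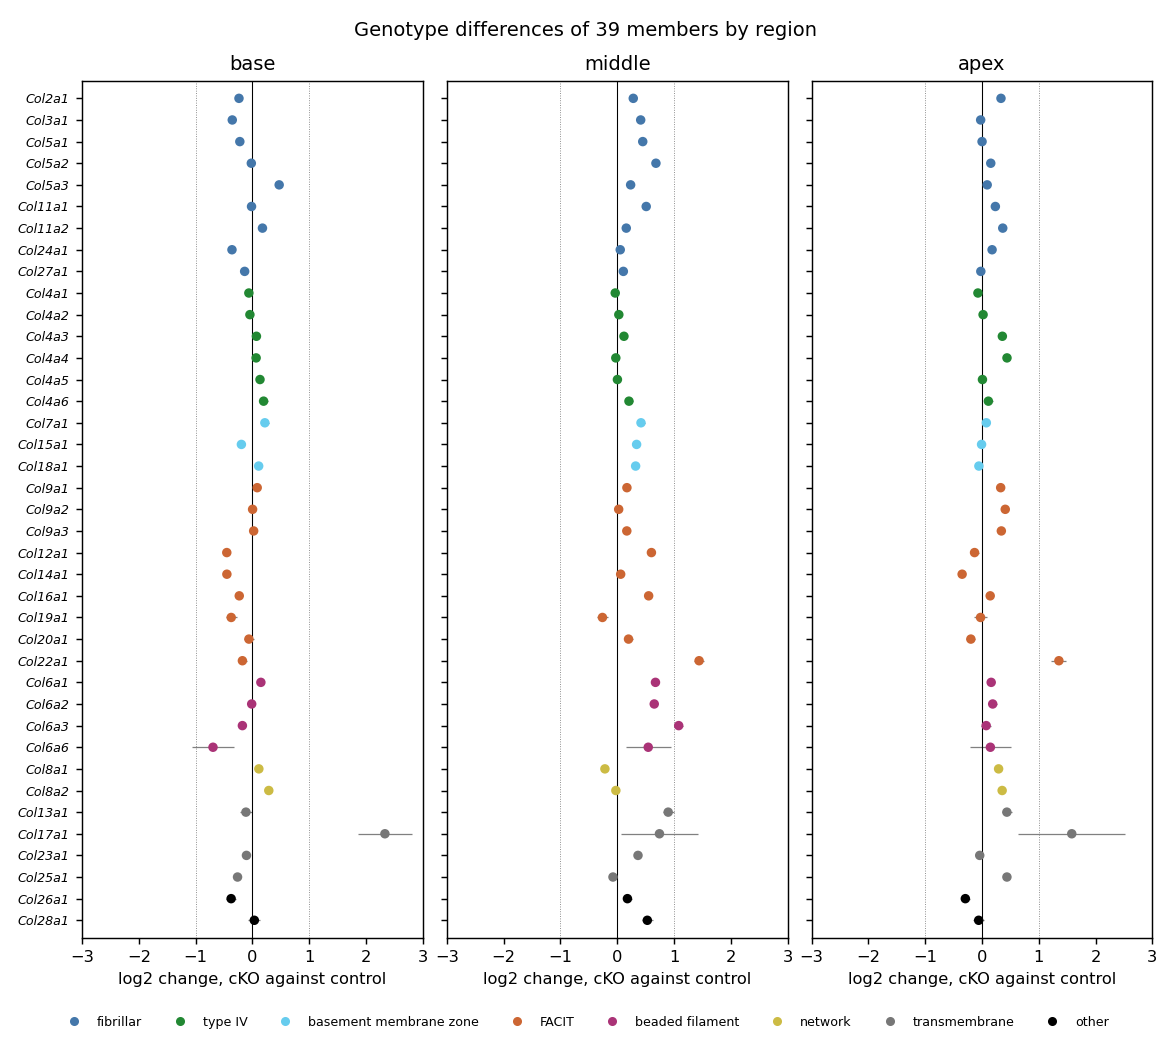
Log2 change of cKO against control (x axis) in base, middle and apex for the 39 members tested (rows), each point a gene with its standard error from edgeR, coloured by type, with dotted lines at 1 and -1. In the middle most members lie right of 0, and Col22a1 and Col6a3 lie past 1.

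Col22a1 was the one member called in more than 1 region. In CPM, the control held 11.3, 12.5 and 12.3 in base, 4.43, 4.31 and 6.18 in middle and 2.87, 2.4 and 2.16 in apex. The cKO held 9.71, 11.5 and 10.8 in base, 14.2, 12.8 and 13.8 in middle and 6.43, 5.85 and 6.4 in apex. In the middle and in the apex every cKO library lay above every control library, and in the base the groups overlapped. The difference was 1.44 ± 0.092 in the middle (adjusted p = 2.78e-15, 2.71-fold), 1.35 ± 0.13 in the apex (adjusted p = 1.20e-10) and -0.18 ± 0.084 in the base (adjusted p = 0.101). On the authors' FPKM the middle difference did not pass: libraries held 0.931, 0.945 and 1.88 FPKM in control and 2.1, 1.5 and 2.22 in cKO, with an adjusted p of 0.167 on log2(FPKM + 0.1) and 0.102 on log2(FPKM + 1) in limma. The apex difference was 0.51 on log2(FPKM + 1), under the fold threshold, and the change from control base to control middle did not pass on log2(FPKM + 0.1) (-0.78, adjusted p = 0.0943). Along the control, Col22a1 fell by 2.34 ± 0.11 on the log2 scale from base to apex, against -0.81 ± 0.097 in the cKO, and over the pools it did not pass (-1.64 ± 0.44, adjusted p = 0.0953). The gene lies on the minus strand of chromosome 15, 71795795 to 72034227.

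Col6a3 stood at 4.88, 4.75 and 4.52 CPM in control middle and 9.98, 10.3 and 9.96 in cKO middle, with no overlap, a difference of 1.08 ± 0.080 (adjusted p = 1.86e-13). On log2(FPKM + 1) in limma this difference was 0.80, under the fold threshold. In the base, control libraries held 10.7, 10.6 and 10.6 and cKO libraries 10.1, 9.59 and 8.66 CPM, and in the apex 5.38, 5.11 and 5.36 and 4.76, 5.85 and 5.81, with differences of -0.18 ± 0.072 and 0.07 ± 0.093. In control the middle libraries lay below all base libraries, and in the cKO the base and middle libraries overlapped. Along the control it fell from base to apex (-1.08 ± 0.080), while in the cKO the change was -0.83 ± 0.084, under the threshold. Its partners Col6a1 and Col6a2 had differences of 0.67 ± 0.042 and 0.65 ± 0.046 in the middle, under the fold threshold, with every cKO library above every control library.

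Col17a1, the hemidesmosome collagen of skin and other epithelia, was called in the base at very low counts. In counts, the control libraries held 7, 2 and 3 in base, 0, 2 and 6 in middle and 1, 2 and 0 in apex. The cKO libraries held 23, 12 and 21 in base, 3, 7 and 6 in middle and 5, 2 and 2 in apex. The summed counts of 56 against 12 give a ratio of 5.18 per total (95% exact interval 2.75 to 10.6, counting error only), and edgeR gave 2.33 ± 0.47 (adjusted p = 1.22e-04). The cKO base libraries were the highest of all 18. In the cKO it fell from base to apex (-2.68 ± 0.50) and from base to middle (-2.18 ± 0.44). Airway and muscle markers, listed above, had sums of 134 and 0.953 CPM in control base and 105 and 2.62 in cKO base, and their part in the Col17a1 difference was not tested.

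By the order of libraries alone, with members past the fold threshold included, every cKO library lay above every control library in the middle for 28 of 39 members, against 25.4% of all genes, and below for 2 of 39 (Col8a1 and Col19a1, against 20.6%). In the apex the cKO was above for 20 of 39 (against 22.2%) and below for 5 of 39 (against 26.9%). In the base the counts were 14 of 39 above and 16 of 39 below, against 21.7% and 22.5% of all genes. Summed by type, the middle held 3941 ± 14.2 CPM of fibrillar genes in control and 4568 ± 21.3 in cKO, 918 ± 5.29 and 1026 ± 10.3 of FACIT genes, 50.5 ± 2.54 and 83.2 ± 1.86 of type VI, and 399 ± 3.58 and 406 ± 2.19 of type IV. Col11a2 alone held 2682 ± 11.4 and 3021 ± 10.9 CPM of the fibrillar sums. In the apex, Col4a3 and Col4a4 had 0.36 ± 0.045 and 0.44 ± 0.034 and Col9a1, Col9a2 and Col9a3 had 0.33 ± 0.026, 0.41 ± 0.022 and 0.34 ± 0.020, all under the fold threshold, while Col4a1 had -0.07 ± 0.024.

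In the middle, where 2.72% of all genes were called by genotype, 2.15% higher, the osteoblast list also differed. Ibsp (1.55), Bglap (1.37) and Bglap2 (1.04), 3 of 10 genes, were higher in cKO middle. The osteoblast sums there were 6531 to 6599 CPM in control and 6809 to 6841 in cKO. Col1a1 differed there by 1.44 ± 0.024 and in the base by -1.52 ± 0.015. Of the genes that handle collagen, the procollagen proteinases Adamts14 (1.71 ± 0.15) and Tll1 (1.80 ± 0.21) and the collagenase Mmp13 (1.07 ± 0.15) were higher in cKO middle, the last under the fold threshold without control middle replicate 1 (0.98) or 2 (0.96). Gp6 was lower (-1.09 ± 0.43), a call lost with DESeq2 (adjusted p = 0.166) and without any library of cKO middle or control middle replicate 1 or 2 (adjusted p = 0.0508 to 0.214), and 0 of 5 crosslinking genes were called. In the apex 1 of these 47 genes was called (against 2.04% of all genes), Gp6 (3.59 ± 0.93; 0.23 and adjusted p = 0.075 on log2(FPKM + 1)). In the base 2 of 47 were called (against 3.03%), Tll1 (1.07 ± 0.27) and Mmp8 (1.73 ± 0.14), both higher, and Tll1 was under the fold threshold without control base replicate 1 (0.97) or 3 (0.89). On log2(FPKM + 1), Adamts14, Tll1 and Mmp13 in the middle (0.48, 0.56 and 0.51) and Tll1 in the base (0.24) were under the fold threshold. In the middle, 3 of 5 tectorial membrane genes (Tecta 4.05, Tectb 2.26 and Otog 1.24), 1 of 10 cartilage genes (Prg4 1.48) and 1 of 5 genes of the meninges (Slc47a1 1.69) were higher in the cKO, with sums of 845 and 1020.2, 1624 and 1532, and 24543 and 23588 CPM in control and cKO. The 3 red blood cell genes were higher in the cKO in base and apex, with sums of 426 and 1257 CPM in the base and 305 and 749 in the apex of control and cKO. Of the spiral ganglion neuron and Schwann cell genes 0 were called by genotype in any region, with apex sums of 4493 and 3239 and of 5714 and 4368 CPM. The part of these tissues and cells in the collagen differences was not tested.

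Whether the genotype difference depended on the region was itself tested by interaction contrasts on the libraries. The difference in the middle exceeded that in the base for 4 of 39 members and was below it for 0 (4.7% of all genes called, 2.16% higher and 2.54% lower): Col22a1 (1.62 ± 0.13, adjusted p = 5.10e-13), Col6a3 (1.26 ± 0.11, adjusted p = 7.89e-12), Col12a1 (1.05 ± 0.081, adjusted p = 4.01e-13) and Col13a1 (1.01 ± 0.14, adjusted p = 3.47e-07). Between apex and base 1 member was called, Col22a1 (1.53 ± 0.16, with 2.41% of all genes called, 0.855% higher and 1.56% lower), and between apex and middle 1, Col6a3 (-1.01 ± 0.12, with 3.6% called, 1.93% lower and 1.67% higher), each 2.56% of members. For Col12a1 the difference of cKO against control was -0.45 ± 0.059 in the base and 0.60 ± 0.056 in the middle, both under the fold threshold, with no overlap of libraries in either region. Col13a1, a transmembrane collagen of the neuromuscular junction and other adhesion sites, held 6.75, 5.96 and 5.52 in base, 3.32, 4.44 and 4.42 in middle and 7.27, 7.45 and 7.16 in apex in control, in CPM. The cKO held 5.37, 6.24 and 5.43 in base, 7.63, 7.8 and 7.47 in middle and 9.33, 9.37 and 10.5 in apex. Its control middle libraries were the lowest of all 18.

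The calls nearest the threshold rested on single libraries. The Col13a1 contrast was 0.97 without cKO base replicate 1, 0.98 without cKO base replicate 3, 0.93 without control base replicate 1 and 0.89 without control middle replicate 1, and 0.995 without cKO middle replicate 2. The apex-middle contrast of Col6a3 was -0.92 without cKO apex replicate 1, and lay between -0.99 and -0.98 when leaving out cKO middle replicate 2, control apex replicate 1 or 3, or control middle replicate 3. The Col22a1 contrast of middle and base did not pass on FPKM (adjusted p = 0.138 on log2(FPKM + 0.1), limma).

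**Figure D5:**
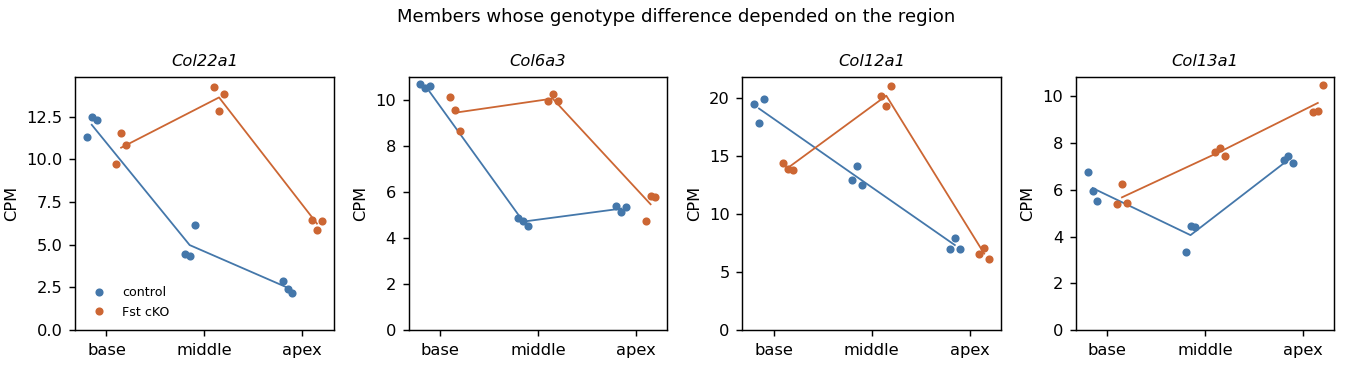
CPM of Col22a1, Col6a3, Col12a1 and Col13a1 (y axis, from 0) by region (x axis), with 1 point per library and lines through the means of control (blue) and cKO (orange). In control the mean of the middle lies below that of the base for all 4 genes, and in cKO it lies above.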

How the data were processed

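RNA-seq of 18 libraries, 3 technical libraries of 1 RNA pool for each of 6 groups, was analysed from a single table. Estimated counts per gene were deposited by the authors and are mostly whole numbers (89.2% to 89.9% of all values, zeros included, within 1e-06 of a whole number), and they were rounded here. FPKM values were also deposited by the authors in that table. Per the submitters' processing notes, STAR 2.5.2b, Cuffdiff 2.2.1 and the build GRCm38/mm10 were used, with no roles given, and the program that made the counts is not given in the sources used here. Reads came from TruSeq RNA libraries with Ribo-Zero depletion, per the labels' protocols.

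Members and gene lists were chosen with earlier results of these data known. CPM used library totals of 24446760 to 33732726 counts, without further scaling. Tests used edgeR 4.0.16 in R 4.3.3 (TMM factors 0.977 to 1.03, filterByExpr, 1 quasi-likelihood fit of 6 groups with 12 residual degrees of freedom). A call needed an adjusted p under 0.05 (Benjamini-Hochberg over 17901 genes) and a log2 change of at least 1. Values after ± are SD for levels and standard errors for log2 changes. Summed pools were fitted with region and genotype as terms and called at an adjusted p under 0.05 over 19446 genes. Members named with changes were those called and their partners in the same chain sets, and others were named after their values were seen. Alternatives were RLE size factors, DESeq2 1.42.0, limma 3.58.1 on log2(FPKM + 1) or log2(FPKM + 0.1) for genes of mean FPKM of at least 0.1, no filter on low counts, the replicate number as a block, other fold thresholds, fits of only the groups compared, and leaving out each library. The fit on libraries was run on simulated counts with 200 genes changed in cKO apex alone. The simulated spread was not matched to that of either fit. The fit of summed pools was run on them without a criterion, so it was not tested there. Coordinates are from GENCODE M21 and promoter windows from RefSeq on GRCm38.p6.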

Additional observations from a re-analysis of the deposited data

Results flagged for a closer look

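In 6 cases the genotype difference of a member depended on the region by edgeR's test of the difference itself, on technical libraries of 1 pool per group. For Col22a1 the log2 difference of cKO against control was larger in the apex than in the base by 1.53 and larger in the middle than in the base by 1.62. For Col6a3 it was larger in the middle than in the base by 1.26, and the apex minus the middle was -1.01. The middle also exceeded the base for Col12a1 by 1.05 and for Col13a1 by 1.01. The contrasts share pools, since the middle pools enter both those with the base and those with the apex. With 1 pool per group, a difference between animals and one between genotypes cannot be told apart.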

How the results depend on the processing

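Of 50 calls of a member in a comparison, 27 held under every alternative run. Over 760 such checks, 712 kept direction and call, 48 kept the direction but not the call, and 0 reversed. Many of these checks left out a single technical library and kept the others of the same pool, so they could change little. The calls include those over the summed pools, which have no fold threshold. Other fold thresholds were not among the checks, and Col17a1 and Col6a6 had none on FPKM. These totals therefore say nothing about the spread between animals. Counts of members called follow in the order apex against base, apex against middle and middle against base, or apex, middle and base for genotype, with the shares of all genes called in parentheses. A 1.5-fold threshold gave 17, 11 and 9 (11.6%, 10.5% and 5.67% of all genes) in control, of which 0, 2 and 0 were higher, and 18, 9 and 2 (14.1%, 9.91% and 7.78% of all genes) in the cKO, of which 2, 0 and 0 were higher. It gave 7 (5.37%), all higher, for genotype in the middle and 2, 3 and 9 (4.35%, 7.01% and 8.32% of all genes) for the interactions. Without a fold threshold the counts were 35, 31 and 28 (52.5%, 45.5% and 31.5% of all genes) in control, of which 7, 8 and 0 were higher, and 31, 30 and 31 (55.3%, 50.9% and 46.4% of all genes) in the cKO, of which 8, 6 and 16 were higher. They were 21, 27 and 24 (40.6%, 35.7% and 36.1% of all genes) for genotype, of which 18, 24 and 11 were higher, and 23, 29 and 27 (24.8%, 38% and 33.4% of all genes) for the interactions, of which 20, 9 and 23 were higher. With limma on log2(FPKM + 1), control gave 8, 1 and 0 (1.33%, 1.06% and 0.456% of all genes), the cKO 3, 3 and 0 (1.59%, 1.04% and 0.806% of all genes), and all genotype and interaction counts were 0 (0.264% to 1.28% of all genes). On log2(FPKM + 0.1), cKO middle against base and genotype in the base gave 0 (2.36% and 2.11%), genotype in the middle gave 1 (1.79%) and the interaction of middle and base 2 (3.48%). The limma fits tested 37 members, since Col17a1 and Col6a6 (means of 0.0791 and 0.0519 FPKM) were under the filter of 0.1. Col17a1 was the only member edgeR called in cKO middle against base and in genotype in the base. Its absence there on FPKM was therefore set by the filter and is no check of those calls. For the summed pools, DESeq2 gave 20, 12 and 8 (13.7%, 6.57% and 2.42% of all genes), of which 1, 1 and 0 were higher, and 1 (1.88%) for genotype. Without the filter on low counts edgeR gave 16 and 6 (5.55% and 1.71% of all genes) for apex against base and against middle. The cause was not tested. For the fits that leave out 1 library, parentheses hold the numbers of all genes called. Leaving out 1 library gave 11 to 13 members for control apex against base (985 to 1014). It gave 2 to 3 for apex against middle (943 to 964) and 2 to 3 for middle against base (467 to 489). In the cKO it gave 6, 4 to 5 and 1 (1181 to 1232, 832 to 857 and 600 to 612). For genotype it gave 1 in apex, 2 in middle and 1 in base (360 to 383, 490 to 510 and 532 to 585). The interactions gave 1, 0 to 1 and 3 to 5 (411 to 433, 618 to 637 and 807 to 833). The 0 arose without cKO apex replicate 1, cKO middle replicate 2, control apex replicate 1 or 3 or control middle replicate 3. In the pools, apex against base gave 10 to 12 (1271 to 1440). Apex against middle gave 0, without control middle replicate 2, to 3, without control base replicate 1 (183 to 346 over all such fits).

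With the replicate number as a block, each of the 12 counts on libraries was the same as without it, such as 11 for control apex against base. Same-numbered libraries of different groups correlated by -0.0326 to 0.0463 (median 0.0107 over 45 pairs), 0 of them over 0.1. Differently numbered libraries correlated by -0.0452 to 0.0316 (median -0.00621 over 90 pairs). Of 18 libraries, 15 correlated best with their own number, so same-numbered libraries were weakly alike. The main fit did not pair libraries by number, and the fit with the block gave the same counts. The depth limits Col6a4, Col6a5, Col6a6, Col10a1 and Col17a1, with 21, 37, 228, 58 and 104 counts in all.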
